A study of Danio rerio with 2 samples.

Results

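The genes of bone morphogenetic protein (BMP) and transforming growth factor beta (TGF-beta) signalling were compared between zebrafish larvae homozygous for the lri12 mutation and their wild-type siblings. Members were the loci of the deposited table whose symbol begins with bmp, gdf, tgfb, smad or inhb, in either letter case, together with named activin receptors, noggins, chordin and Id genes. This gave 72 of 40114 loci. They carry 70 different gene names, because acvr2b and bmpr1bb each stand at 2 loci. No locus carried the symbol acvr1. The rule reads symbols only, but it was written with earlier results of these data known. A few genes carry one of these prefixes without being ligands, receptors or Smads. These are described apart, with bmper among the secreted BMP-binding proteins.

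BMPs and TGF-betas are secreted dimers that bring a type I and a type II receptor together on the receiving cell. The type I receptor then phosphorylates receptor-regulated Smads, which bind a common Smad4 and enter the nucleus. Smad1, Smad5 and Smad9 serve the BMP branch, whereas Smad2 and Smad3 serve TGF-beta and activin. In the zebrafish embryo a BMP gradient patterns the back-to-belly axis, and at larval stages the pathway acts in bone, cartilage, vessels, heart and gut.

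Each genotype was represented by 1 pool of 20 whole larvae, collected at 5 days post-fertilization (dpf) after culture at 28.5 °C. The mutant pool was lri12 homozygous, and the wild-type pool came from the same clutch. The title of the mutant sample spells the line lir12, while its genotype reads lri12. The gene affected is not named in the labels, so its own transcript could not be used to check them. With 1 library a genotype there is no replicate check, no error and no test, and every value below describes these libraries. In a whole-body pool, fewer cells of a type and less RNA per cell cannot be told apart.

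Levels are the authors' deposited values, taken as FPKM, which scales fragments by transcript length and by the mapped fragments of the library. Differences are log2((mutant FPKM + 1)/(wild-type FPKM + 1)), and all folds are on this scale, which understates the change of low genes. A gene entered the comparison when its mean over both pools reached 1 FPKM. The number of reads is unknown, and only the relative depth of the libraries can be approached: in 2396 loci with a mean below 0.2 FPKM, the ratio met most often was -0.15 on the log2 scale. If these are equal read numbers, the mutant library held 1.11 reads per wild-type read. Beside the members, the exocrine pancreas markers were lower in the mutant in 10 of 10 genes, with a summed level of 9969 FPKM in the siblings and 4312 FPKM in the mutant and none listed at 0. The intestine markers were lower in 5 of 5 genes (1131 and 618 FPKM summed), and the liver markers in 6 of 7 (4523 and 3922 FPKM summed). Lens markers were higher in 4 of 4 genes (1731 and 2335 FPKM summed). The pancreas marker prss1 was matched by synonym to try, and the intestine marker vil1 to vil1l. Of all genes that entered, 51.3% were above 0, and each marker list is short. The other lists went both ways, with 3 of 6 bone genes, 2 of 4 cartilage genes, 1 of 4 blood vessel genes and 2 of 3 notochord genes above 0. Their sums were 847 and 890 FPKM for bone, 438 and 439 FPKM for cartilage, 25.2 and 23.7 FPKM for vessels and 87.6 and 90.6 FPKM for notochord. Within bone, the osteopontin gene spp1, listed as zgc:111821, was 1.91-fold lower and col10a1 1.31-fold lower. On the other side, bglap, matched by synonym to a locus listed under mgp, was 1.24-fold higher and sparc 1.11-fold higher. The part of these tissues in the differences below was not tested.

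The pathway differed little between the pools, as did most genes. The median size of the log2 difference in either direction was 0.090 over the members and 0.095 over all genes. Of the 70 member genes 58 entered, and among these 0 were higher and 0 lower in the mutant by 2-fold or more. Over all 18664 genes that entered, 0.289% were higher by that much and 0.439% lower, and a count of 0 among 58 is near that background. By a smaller rule of 1.2-fold, 2 members were higher and 2 lower, beside 5.9% and 7.39% of all genes. With a pseudocount of 5 in place of 1, TGFBR2 (2 of 2), bmp16 and tgfbrap1 came inside this limit, which left bmpr1bb. Over all genes 2.37% were then higher by 1.2-fold and 3.55% lower. With the pseudocount of 1, the other 54 members, or 93.1%, lay within 1.2-fold, as did 86.7% of all genes. The median log2 difference was 0.05 over the members and 0.004 over all genes. By level, within 1.2-fold lay 18 of 20 members and 86.5% of all genes at 1 to 5 FPKM, 30 of 32 members and 88.1% of all genes at 5 to 20 FPKM, and 6 of 6 members and 84.3% of all genes over 20 FPKM. Above 0 stood 38 of the 58 members, or 65.5%, beside 51.3% of all genes. In the authors' deposited table, 0 of the 68 member loci marked as tested had a Cuffdiff q under 0.05 (0.348% of all tested loci). Of these member loci 1 had an unadjusted p under 0.05 (2.59% of all tested loci). These p-values compare 1 pool with 1 pool.

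**Figure D1:**
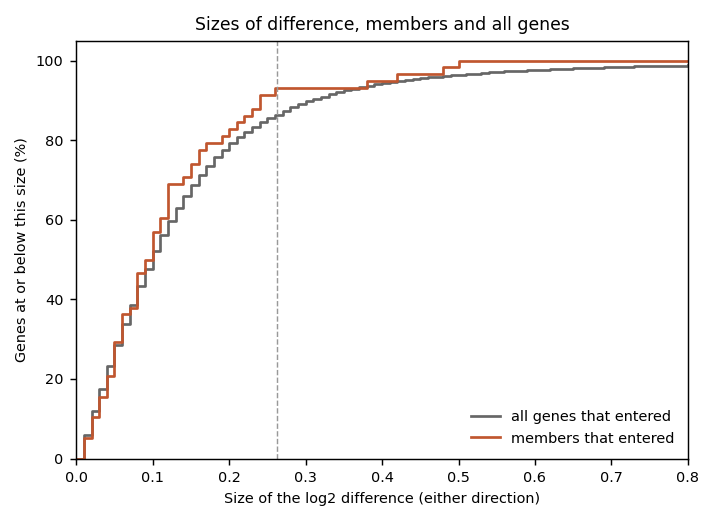
Cumulative percentage of genes (vertical axis) at or below a given size of the log2 difference in either direction (horizontal axis), for the 58 members and the 18664 genes that entered; the dashed line marks 1.2-fold. Both curves climb close together, and at the dashed line the members stand at 93.1% and all genes at 86.7%.

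Most of the pathway was transcribed at moderate levels, and id1, tgfbi and id2a stood above the rest. Among the 58 members the median level was 7.42 FPKM in the siblings and 7.59 FPKM in the mutant, near the 6.49 and 6.47 FPKM of all genes. Summed over the members, the level was 884 FPKM in the siblings and 943 FPKM in the mutant. Without the abundant genes id1, id2a and tgfbi, the sum was 439 and 457 FPKM.

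**Figure D2:**
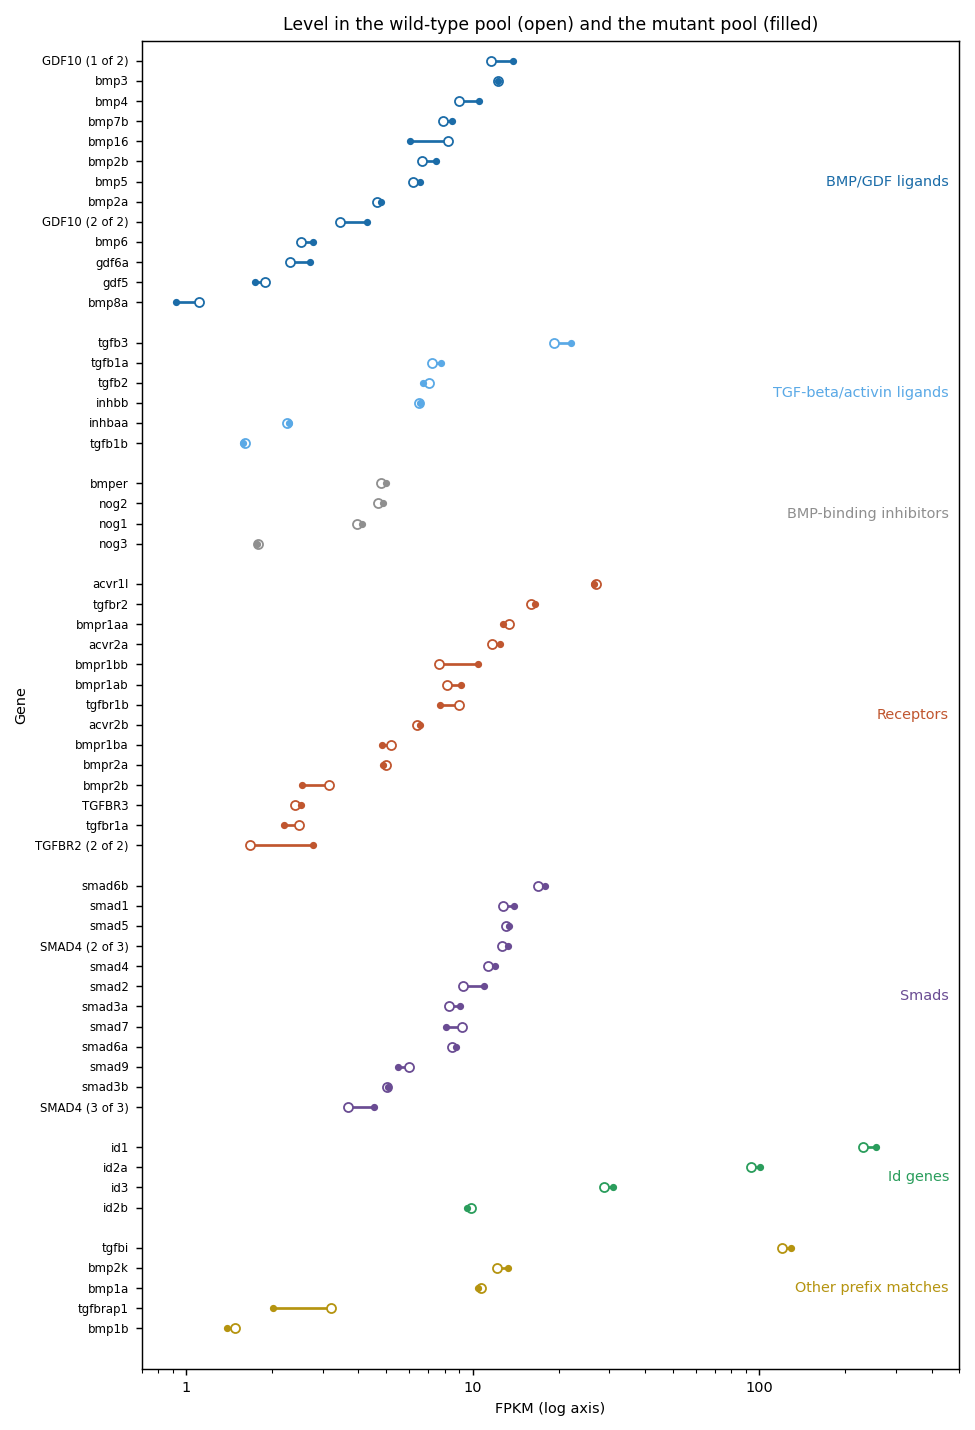
Level of each of the 58 members that entered, in FPKM on a log axis, in the wild-type pool (open circles) and the mutant pool (filled circles), with 1 gene a row grouped by role. Most pairs of circles nearly touch; id1 at 231 and 256 FPKM is the most abundant, and the widest gaps belong to TGFBR2 (2 of 2), tgfbrap1, bmpr1bb and bmp16.

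Among BMP and GDF ligands, 13 entered, of which 12, or 92.3%, lay within 1.2-fold, beside 86.7% of all genes. The other, bmp16, was lower in the mutant by more, as were 7.39% of all genes. Above 0 stood 9 of the 13, or 69.2%, beside 51.3% of all genes. The gene bmp16 encodes a fish ligand related to Bmp2 and Bmp4. Its locus on chromosome 18 (Zv9, 47537684 to 47547387) stood at 8.19 FPKM in the siblings and 6.07 FPKM in the mutant, 1.30-fold lower. Across all genes 6.42% differed by at least as much in either direction.

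The gene bmp4 (chromosome 17, bases 51094183 to 51116252) stood at 8.98 FPKM in the siblings and 10.5 FPKM in the mutant, 1.15-fold higher. The gene bmp2b, whose loss dorsalizes the zebrafish embryo, stood at 6.67 and 7.46 FPKM, 1.10-fold higher, and its duplicate bmp2a at 4.63 and 4.80 FPKM. For bmp7b the levels were 7.92 and 8.48 FPKM. The related bmp7a, which acts with Bmp2b in the early embryo, was nearly silent at 0.132 and 0.175 FPKM. The ligand gene bmp5, on an unplaced scaffold, stood at 6.19 and 6.57 FPKM, and bmp6, whose mammalian counterpart drives the iron hormone hepcidin, at 2.52 and 2.77 FPKM.

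The most abundant ligand genes of this group belong to the Bmp3 and Gdf10 branch. The gene bmp3, encoding a ligand that counters other BMPs in mammalian bone, was level at 12.3 FPKM in both pools. Its locus is shared with the gene model C5H4orf22, so that the value belongs to both. The copies listed as GDF10 (1 of 2) and GDF10 (2 of 2) stood nearest to the 1.2-fold limit without passing it. The first (chromosome 13, bases 31509169 to 31514356) stood at 11.6 FPKM in the siblings and 13.9 FPKM in the mutant, 1.18-fold higher. The second (chromosome 12, bases 3210070 to 3223907) stood at 3.45 and 4.29 FPKM, 1.19-fold higher. Both copies thus lay on the same side of 0, and 14.4% of all genes differed by at least as much as the second.

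Growth and differentiation factors of the skeleton and eye were low. The gene gdf6a, which acts in the dorsal retina, stood at 2.30 FPKM in the siblings and 2.71 FPKM in the mutant, and gdf5, a ligand of forming joints, at 1.89 and 1.74 FPKM. The lowest ligand that entered, bmp8a, stood at 1.11 and 0.923 FPKM. In all, 9 ligands that did not enter had a mean below 1 FPKM. Among them the axial patterning ligand gdf11 (0.624 and 0.788 FPKM) and gdf7 (0.721 and 0.650 FPKM) were the highest. The germ cell ligands gdf9 and bmp15 stood at 0.0355 and 0.185 FPKM in wild-type siblings and at 0.0642 and 0.158 FPKM in mutant larvae. The bmp15 locus overlaps that of got2b, at 129 FPKM in wild type. The heart ligand bmp10 stood at 0.166 and 0.173 FPKM, the copy BMP10 (2 of 2) at 0.187 and 0.129 FPKM, and the vascular ligand gdf2 at 0.0549 and 0.0825 FPKM. No fold is drawn from levels this low.

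All 6 TGF-beta and activin ligands that entered lay within 1.2-fold, as did 86.7% of all genes. The most abundant was tgfb3 (chromosome 17, bases 52587614 to 52620507), at 19.3 FPKM in the siblings and 22.0 FPKM in the mutant, 1.13-fold higher. The gene tgfb1a stood at 7.20 and 7.79 FPKM, tgfb2 at 7.07 and 6.74 FPKM, and the duplicate tgfb1b at 1.61 and 1.58 FPKM. The activin beta subunit genes inhbb (6.48 and 6.58 FPKM) and inhbaa (2.26 and 2.29 FPKM) were within 0.02 of 0 on the log2 scale. Their relatives inhbab and INHBE did not enter, at 0.549 and 0.741 FPKM in the siblings and 0.412 and 0.616 FPKM in the mutant. The inhbaa locus overlaps 3 others, the highest at 2.24 FPKM in wild type.

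The 4 genes of secreted BMP-binding proteins that entered showed the narrowest range of any role, though no role held fewer genes. Noggin genes nog1, nog2 and nog3 stood at 3.94, 4.66 and 1.78 FPKM in wild type. In the mutant they stood at 4.12, 4.85 and 1.77 FPKM, log2 differences of 0.05, 0.05 and -0.004. The gene bmper, a modulator that can hinder or aid BMP signalling, stood at 4.80 and 5.00 FPKM. Its locus overlaps that of ANO10, at 16.1 FPKM in wild type. Chordin, chd, the dorsal organizer's BMP antagonist, was below the limit at 0.724 and 0.863 FPKM and is not part of this range.

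Receptors held both members that were at least 1.2-fold higher, 2 of the 14 that entered, beside 5.9% of all genes. The other 12, or 85.7%, lay within 1.2-fold, as did 86.7% of all genes. Above 0 stood 7 and below 0 stood 7, beside 51.3% of all genes above 0. On the scale used here the largest difference among members was that of TGFBR2 (2 of 2), a second copy of the TGF-beta type II receptor (chromosome 19, bases 951749 to 968390). It stood at 1.68 FPKM in the siblings and 2.77 FPKM in the mutant, 1.41-fold higher. As many as 3.58% of all genes differed by at least as much. In the authors' deposited table this was the member with an unadjusted p under 0.05, at 0.0188, with a q of 0.999. With a pseudocount of 5, or with the highest locus of each symbol, bmpr1bb differed more (0.29 against 0.22 and 0.54 against 0.50 on the log2 scale). The principal copy, tgfbr2 (chromosome 16, bases 42171680 to 42272179), stood at 16.0 and 16.5 FPKM, so the copies differed in abundance and only the scarce one passed 1.2-fold.

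The second was the BMP type I receptor bmpr1bb, summed over loci on chromosome 10, at 7.65 FPKM in the siblings and 10.5 FPKM in the mutant, 1.33-fold higher. One of its loci (1124109 to 1191159) stood at 3.89 and 6.09 FPKM, 1.45-fold higher. The other (992504 to 1006540) stood at 3.75 and 4.40 FPKM, 1.14-fold higher. Both loci were therefore higher, and most of the difference came from the longer one. Its duplicate bmpr1ba lay on the other side of 0, at 5.21 and 4.81 FPKM.

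The remaining 3 type I receptors of the BMP branch lay within 1.2-fold. The gene acvr1l (chromosome 2, bases 41563235 to 41583425), the zebrafish Alk8 receptor needed for ventral fates, was the most abundant receptor, at 26.9 FPKM in the siblings and 26.5 FPKM in the mutant. The genes bmpr1aa and bmpr1ab stood at 13.4 and 8.12 FPKM in wild-type siblings and at 12.7 and 9.15 FPKM in mutant larvae, 1.05-fold lower and 1.11-fold higher. Their loci overlap those of other gene models. Summed over these 5 type I receptors, the level was 61.4 FPKM in the siblings and 63.7 FPKM in the mutant.

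The type II receptors acvr2a, acvr2b, bmpr2a and bmpr2b summed to 26.3 FPKM in the siblings and 26.5 FPKM in the mutant. This sum leaves out the TGF-beta type II receptor genes tgfbr2 and TGFBR2 (2 of 2), given above. The activin type II receptor acvr2a stood at 11.7 and 12.5 FPKM. For acvr2b the sum was 6.38 and 6.56 FPKM, over 2 loci with the same start and end (chromosome 24, bases 42910643 to 42967615). Their separate values went apart, at 5.42 and 5.94 FPKM for one and 0.962 and 0.620 FPKM for the other, and the split of reads between these loci is uncertain. The BMP type II receptor bmpr2a stood at 5.01 and 4.89 FPKM. Its duplicate bmpr2b (chromosome 9, bases 13235991 to 13388845) stood at 3.15 and 2.54 FPKM, 1.17-fold lower, the lowest difference among receptors.

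TGF-beta receptors other than the scarce TGFBR2 copy stayed within 1.2-fold. The type I receptor tgfbr1b, in a locus shared with the gene model FP016176.1, stood at 9.0 FPKM in the siblings and 7.73 FPKM in the mutant, 1.15-fold lower. Its duplicate tgfbr1a stood at 2.47 and 2.21 FPKM, also on the lower side. TGFBR3, the co-receptor betaglycan, stood at 2.40 and 2.53 FPKM.

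**Figure D3:**
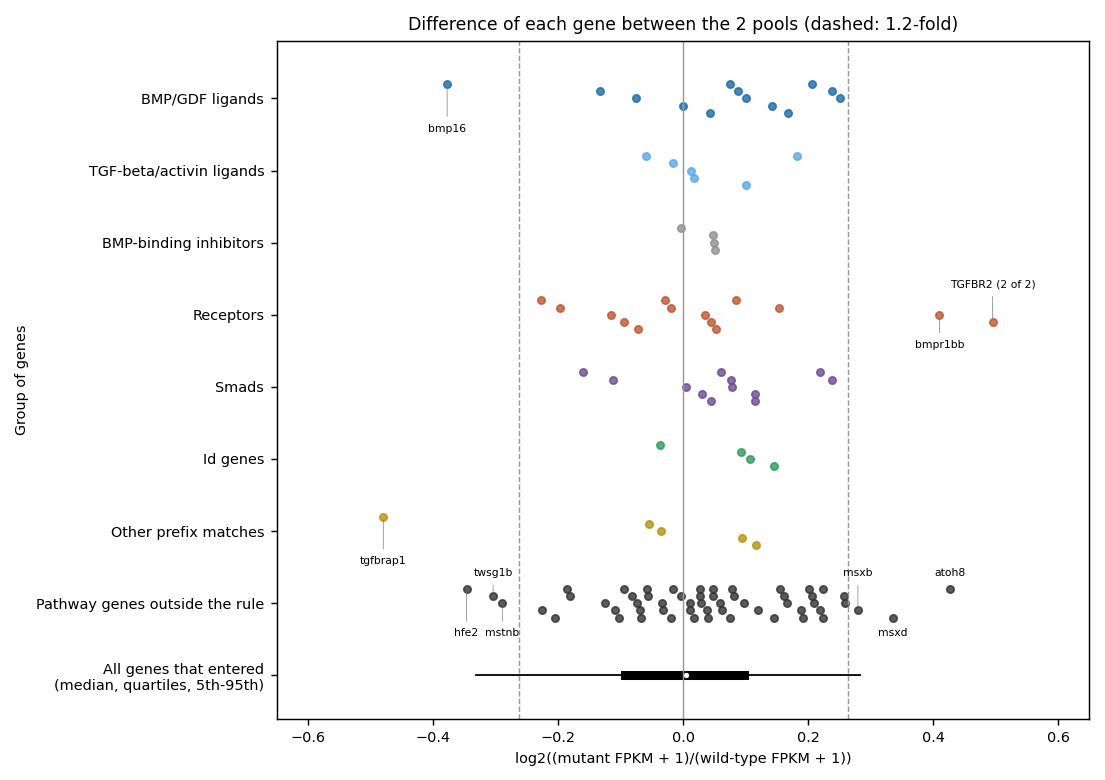
Log2 difference between mutant and wild type on the log2(FPKM + 1) scale (horizontal axis) for every member that entered, by role, for 56 pathway genes outside the rule, and for all genes as median, quartiles and 5th to 95th percentiles; each point is 1 gene and the dashed lines mark 1.2-fold. Only bmp16 and tgfbrap1 lie left of the lines and TGFBR2 (2 of 2) and bmpr1bb right of them among members.

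All 12 Smad genes entered and lay within 1.2-fold, as did 86.7% of all genes. Above 0 stood 10 of them, or 83.3%, beside 51.3% of all genes. The BMP branch Smads summed to 31.9 FPKM in the siblings and 32.8 FPKM in the mutant. Of these, smad1 (chromosome 1, bases 35605158 to 35637057) stood at 12.8 and 13.9 FPKM, smad5 at 13.1 and 13.4 FPKM and smad9 at 6.01 and 5.49 FPKM. The smad9 locus overlaps that of RFXAP, at 15.4 FPKM in wild type. The Smads of TGF-beta and activin summed to 22.6 and 25.1 FPKM. Among them smad2 (chromosome 10, bases 14899575 to 14971855) stood at 9.25 and 10.9 FPKM, 1.16-fold higher, smad3a at 8.29 and 9.05 FPKM, and smad3b at 5.04 and 5.06 FPKM.

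The common Smads summed to 27.7 FPKM in the siblings and 29.8 FPKM in the mutant over 3 genes. The gene smad4 stood at 11.3 and 12.02 FPKM, and SMAD4 (2 of 3) at 12.7 and 13.3 FPKM. The smad4 locus overlaps an unnamed locus, at 16.1 FPKM in wild type. The scarcest, SMAD4 (3 of 3) (chromosome 5, bases 7196180 to 7201204), stood at 3.68 and 4.51 FPKM, 1.18-fold higher, the largest difference among Smads. These 3 genes share a name, and their sequences were not compared. Reads may have been divided among them by the authors' program.

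Inhibitory Smads block the receptors and are themselves induced by signalling, which makes them readouts as well as brakes. They summed to 34.5 FPKM in the siblings and 34.8 FPKM in the mutant. The most abundant Smad gene of all was smad6b (chromosome 18, bases 19428853 to 19480154), at 16.9 and 17.9 FPKM. The gene smad6a stood at 8.45 and 8.75 FPKM in a locus that overlaps a far more abundant one, of 318 FPKM in wild type. The gene smad7, which restrains both branches, stood at 9.17 and 8.10 FPKM, 1.12-fold lower and the lowest difference among Smads.

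The Id genes are direct targets of BMP Smads and encode proteins that bind and disable basic helix-loop-helix factors. The gene id1 (chromosome 11, bases 19124534 to 19125635) was the most abundant member, at 231 FPKM in the siblings and 256 FPKM in the mutant, 1.11-fold higher. The gene id2a (chromosome 17, bases 34969737 to 34975295) stood at 93.8 and 101 FPKM and id3 at 28.9 and 30.9 FPKM, 1.08-fold and 1.07-fold higher. The fourth, id2b, stood at 9.86 and 9.58 FPKM. The most abundant 3 thus lay slightly above 0 and the scarcest slightly below. For id1, 32.4% of all genes differed by at least as much.

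Besides bmper, given above with the BMP-binding proteins, 5 members with such a prefix that entered are not ligands, receptors or Smads. Of these 5, 4 lay within 1.2-fold. That is 80.0%, beside 86.7% of all genes. The gene tgfbrap1 (chromosome 6, bases 14935561 to 14965230), whose product binds TGF-beta receptors and takes part in endosomal trafficking in mammals, stood at 3.20 FPKM in the siblings and 2.01 FPKM in the mutant. At 1.39-fold lower it was the lowest member, and 3.87% of all genes differed by at least as much. The matrix protein gene tgfbi, named for its induction by TGF-beta in human cells, stood at 121 and 129 FPKM, 1.07-fold higher. The kinase gene bmp2k stood at 12.1 and 13.3 FPKM. The tolloid-like proteases bmp1a and bmp1b, which cleave procollagen and chordin, stood at 10.7 and 1.48 FPKM in wild-type siblings and at 10.4 and 1.39 FPKM in the mutant.

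Many of these genes exist as duplicates, and one copy was usually well above the other in both pools. In 16 pairs compared, the copy that was higher in wild type was also the higher one in the mutant in 15. The exception was the bmp10 pair, with both copies under 0.2 FPKM. For bmpr1bb and bmpr1ba, the kept order and the ratios depend on summing the bmpr1bb loci. In wild type each bmpr1bb locus alone (3.89 and 3.75 FPKM) was below bmpr1ba (5.21 FPKM). In the mutant the longer bmpr1bb locus (6.09 FPKM) was above bmpr1ba (4.81 FPKM). The wild-type level of the higher copy was over 2 times that of the lower in 10 pairs. The ratio of id2a to id2b was 9.51 in the siblings and 10.6 in the mutant, that of bmp1a to bmp1b was 7.21 and 7.48, and that of tgfb1a to tgfb1b was 4.47 and 4.93. The pair bmp2b and bmp2a was more even, at ratios of 1.44 and 1.55. The widest shift among pairs in which both copies entered was that of tgfbr2 to its second copy, from 9.53 to 5.96, followed by that of bmpr1bb to bmpr1ba, from 1.47 to 2.18.

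**Figure D4:**
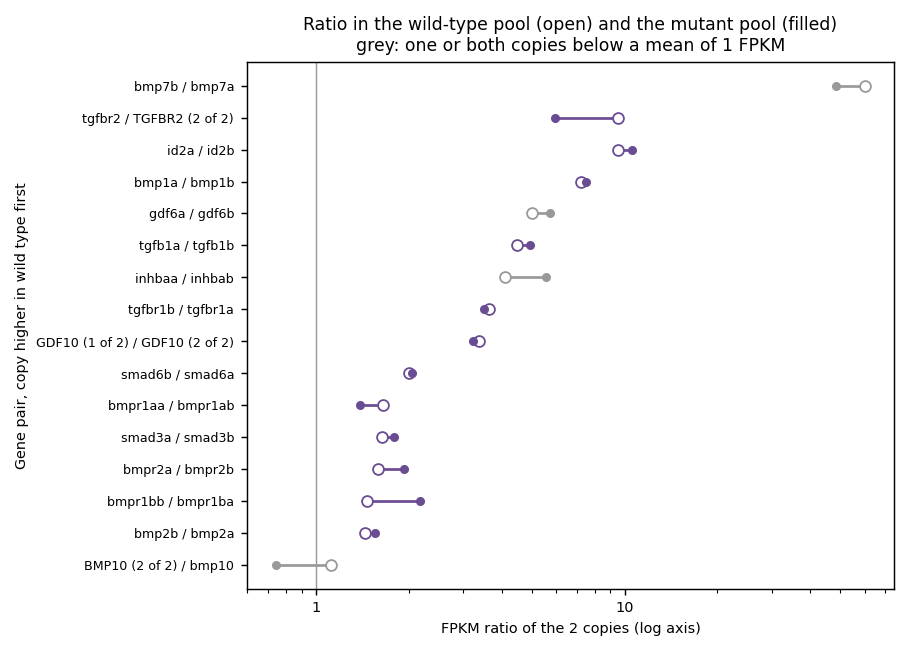
Ratio of FPKM between the copies of 16 gene pairs (log axis), in the wild-type pool (open circles) and the mutant pool (filled circles), with 1 pair a row and the copy higher in wild type named first; grey pairs have a copy below a mean of 1 FPKM. With loci of the same symbol summed, only the bmp10 pair crosses a ratio of 1. The pairs with TGFBR2 (2 of 2) and bmpr1bb move furthest among the coloured ones.

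Some members are chromosomal neighbours with no other locus of the table lying wholly between them. On chromosome 7 the loci of smad3a and smad6a lie 31677 bases apart, and on chromosome 18 those of smad6b and smad3b lie 73406 bases apart, so each duplicate pairs a TGF-beta Smad with an inhibitory one. The relative levels differed between these sites. On chromosome 7 smad3a and smad6a were nearly equal, at 8.29 and 8.45 FPKM in wild type, while on chromosome 18 smad6b stood at 16.9 FPKM beside smad3b at 5.04 FPKM. The level of smad6a is uncertain, because its locus overlaps one of 318 FPKM in wild type. On chromosome 14, smad5 and tgfbi lie 12790 bases apart with levels of 13.1 and 121 FPKM. GDF10 (2 of 2) and the nearly silent gdf2 lie 2401 bases apart on chromosome 12.

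Pathway genes outside the rule gave a similar picture. Of 101 listed symbols 74 genes were matched and 56 entered, with 0 past 2-fold in either direction. Over all genes 0.289% were higher and 0.439% lower by that much, and a count of 0 among 56 is near that background. By the 1.2-fold rule, 3 were higher (5.9% of all genes) and 3 were lower (7.39% of all genes). The other 50 lay between, as did 86.7% of all genes. With a pseudocount of 5 only 1 of the 6 past 1.2-fold, atoh8, passed, beside 2.37% of all genes higher and 3.55% lower. With a pseudocount of 0.1 the number past the limit was 9, beside 8.54% of all genes higher and 9.95% lower. The median log2 difference was 0.03. Nodal and Lefty ligands (ndr1, ndr2, spaw, lft1 and lft2) were all below 0.2 FPKM in both pools. The muscle growth inhibitor myostatin, mstnb, stood at 1.47 FPKM in the siblings and 1.02 FPKM in the mutant, 1.22-fold lower. The co-receptor hemojuvelin, hfe2, expressed in muscle and liver, stood at 8.20 and 6.23 FPKM, 1.27-fold lower. Hepcidin, hamp1, the liver iron hormone controlled through Bmp6 and hemojuvelin in mammals, stood at 9.15 and 8.31 FPKM, within 1.2-fold. The endothelial type I receptor acvrl1 stood at 10.5 and 12.3 FPKM, 1.16-fold higher.

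Among 29 extracellular and intracellular modulators that entered, 28 lay within 1.2-fold, beside 86.7% of all genes. The exception was the BMP-binding protein gene twsg1b, at 2.89 FPKM in the siblings and 2.15 FPKM in the mutant, 1.23-fold lower, whereas its duplicate twsg1a stood at 11.5 and 13.3 FPKM. The activin-binding follistatins fsta and fstb stood at 9.47 and 9.99 FPKM in wild-type siblings and at 8.98 and 10.1 FPKM in mutant larvae. The pseudoreceptor gene bambia stood at 19.1 and 21.3 FPKM, and the matrix proteoglycan dcn, which binds TGF-beta, at 50.7 and 58.6 FPKM.

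Target genes outside the rule held all 3 of the outside genes that were at least 1.2-fold higher (5.9% of all genes), of 19 that entered, with 0 lower (7.39% of all genes) and a median of 0.10. Of these 3, atoh8 alone passed with a pseudocount of 5, beside 2.37% of all genes higher. The gene atoh8, a transcription factor gene induced by BMP in mammalian liver and endothelium, stood at 10.9 FPKM in the siblings and 15.0 FPKM in the mutant, 1.35-fold higher. The homeobox genes msxd and msxb, targets of BMP in fin and skull, stood at 10.3 and 8.80 FPKM in wild-type siblings and at 13.2 and 10.9 FPKM in the mutant, 1.26-fold and 1.21-fold higher. The lowest target was the smooth muscle actin acta2, at 135 and 115 FPKM, 1.17-fold lower. The connective tissue growth factor gene ctgf stood at 49.9 and 52.9 FPKM, the collagen gene col1a2 at 196 and 188 FPKM, and id4 at 20.6 and 19.4 FPKM. Above 0 stood 13 of the 19, beside 51.3% of all genes, and the median over all genes was 0.004. Many of these targets also answer other signals, and the part of the pathway in their differences was not tested.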

How the data were processed

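RNA of 1 pool of 20 larvae a genotype was sequenced. The authors deposited 1 table of 40114 loci in the layout of a Cuffdiff comparison, per the file headers, with values taken as FPKM (no label states the unit) and with p-values and q-values. Bowtie, CASAVA and the build Zv9 are named, per the submitters' processing notes. Strand handling, the annotation and the treatment of multi-mapping reads were not given in the sources used here. Positions are on Zv9, cover whole loci and were taken as 1-based. Of the 72 member loci, 12 overlap another locus, 2 join their symbol to another, and 8 have symbols in capitals.

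Loci of one symbol were summed and loci with failed estimates left out. Differences used a pseudocount of 1 FPKM and a minimum mean of 1 FPKM. Limits of 2-fold and 1.2-fold are rules of size. The named genes were, by rule, the 12 highest and 12 lowest members, the most abundant of each role and those near the limits. Every member could be named, and up to 3 genes furthest in each direction for each outside list. Other outside genes, gene pairs, neighbours and subgroups of receptors and Smads were chosen after the values were seen. Members and lists were chosen with earlier results of these data known. One outside gene is not reported here. Outside symbols were matched as written or by synonym, with RefSeq names of GRCz12tu used for names only. Counting was tested on simulated data built without noise from the same formula, which checks the arithmetic only. Python 3.11.15, pandas 2.3.3 and numpy 2.4.6 were used.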

Additional observations from a re-analysis of the deposited data

How the results depend on the processing

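No paired analysis was possible because each genotype has 1 pool. In 9 planned settings and 1 chosen after seeing the data, the counts of members past 2-fold were 0 in both directions throughout, and the median of the members lay between 0.03 and 0.08. Of 547 single member values 541 kept their side of 1.2-fold and 0 changed sign among those past it. Most settings leave a member's value as it was or nearly so, and a pseudocount cannot change a sign. Both counts were thus largely fixed in advance, and all 6 values that moved did so with another pseudocount. The 1.2-fold counts, 2 higher and 2 lower as reported, rest on few genes. With a pseudocount of 0.1, 4 were higher and 3 lower, beside 8.54% and 9.95% of all genes. GDF10 (2 of 2) at 0.31 and SMAD4 (3 of 3) at 0.29 then passed on the higher side, and bmpr2b at -0.30 on the lower. With a pseudocount of 5, 1 was higher and 0 were lower, beside 2.37% and 3.55% of all genes. With that pseudocount 1 outside pathway gene passed in place of 6. TGFBR2 (2 of 2) at 0.22, bmp16 at -0.25 and tgfbrap1 at -0.23 came inside the limit. A pseudocount shrinks or widens differences of low genes by its construction. With a mean of at least 5 FPKM 1 was higher and 1 lower, from 38 members, beside 5.84% and 7.35% of all genes. With lower-case symbols only, 1 was higher, beside 5.9% of all genes. Without bmp1a, bmp1b, bmp2k, tgfbi and tgfbrap1, 1 was lower, beside 7.39% of all genes. Each of these settings leaves out a gene that passed.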
